A study of Mus musculus with 6 samples.

Results

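Multipotent progenitors (MPP) carrying a knock-in allele of Idh1 were compared with MPP of control littermates by the methylation of single CpG positions. Both libraries were eRRBS, an enhanced form of reduced representation bisulfite sequencing. It reads restriction fragments rich in CpG after bisulfite has converted unmethylated C, so that a C read as T was unmethylated. The KI MPP library came from mice with the genotype label IDH1+/lsl VavCre+, and the Control MPP library from littermates labelled IDH1+/+ VavCre+, so both carried the Cre. The Vav promoter drives Cre in blood-forming cells, and the labels do not name the residue that the knock-in allele changes. Both groups were aged male C57BL/6 mice of 7 to 10 months, and MPP were sorted as Lin- Sca+ Kit+ CD150- cells from the marrow of 6 mice a group. Each side was therefore 1 library of a pool with no replicate, and no spread between mice or pools was measured. The lane numbers in the deposited names were 4 for KI MPP and 5 for Control MPP, and an effect of lane cannot be told apart from one of genotype. The members were the autosomal positions, a strand of a CpG each, with a coverage of at least 10 reads in both libraries. There were 829096 of them among 1325626 autosomal positions covered in any of the 6 libraries of the series, and they filled 36589 windows of 1 kb with at least 5 positions. The other 4 libraries hold long-term and short-term haematopoietic stem cells (LT-HSC and ST-HSC) of both genotypes and were used as a second reading of the same windows. Their levels are means over the positions that each of them covers, which can be fewer than in MPP.

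IDH1 is an enzyme of the cytosol and peroxisome that turns isocitrate into 2-oxoglutarate, the co-substrate that TET enzymes need to oxidise 5-methylcytosine. Mutant forms of IDH1 found in leukaemia and glioma make 2-hydroxyglutarate, which inhibits TET enzymes and other dioxygenases that use 2-oxoglutarate. MPP stand between the stem cells and the lineage-restricted progenitors of the marrow, and DNA methylation at gene starts and at enhancers inside gene bodies is remodelled as these cells mature. Bisulfite reads 5-methylcytosine and 5-hydroxymethylcytosine alike, so the levels below are the sum of both.

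The promoters in which the largest differences lay are printed first, because the CpGs that carry them can be read in the sequence. A gene start, from 1000 bases before to 500 after the start, was called when the reads of the 2 libraries differed at an adjusted p under 0.01 and the mean of CpG levels by at least 10 percentage points. The p came from a two-sided Fisher exact test with Benjamini-Hochberg adjustment, which compares 2 libraries and not 2 conditions and covers counting error only. Reads of a region are summed over its positions, so 1 molecule can count at several of them, and the p can then be too small. Of 13545 gene starts, 2.19% were called higher in KI MPP and 0.657% lower. Among the 298 of these with a RefSeq promoter, 44 had at least 8 measured positions in it, and the 4 with the largest rise and the 3 with the largest fall within it are shown. Each runs 5′ to 3′ on the gene's strand over 300 bases, from 250 before to 50 after the start, as RefSeq gives it on GRCm38.p6. A CpG in capitals was measured in both libraries on at least 1 strand. The first 4 had a higher level in KI MPP. They lie at chr1:39720940-39721239 (minus strand) for Rfx8, chr17:57087551-57087850 (minus) for Tubb4a, chr6:83135558-83135857 (plus) for Rtkn and chr16:18588850-18589149 (minus) for Tbx1. The other 3 had a lower level in KI MPP and lie at chr12:18853705-18854004 (plus) for Gm40847, chr3:83127277-83127576 (plus) for Dchs2 and chr9:123924898-123925197 (plus) for Gm51701.

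Rfx8: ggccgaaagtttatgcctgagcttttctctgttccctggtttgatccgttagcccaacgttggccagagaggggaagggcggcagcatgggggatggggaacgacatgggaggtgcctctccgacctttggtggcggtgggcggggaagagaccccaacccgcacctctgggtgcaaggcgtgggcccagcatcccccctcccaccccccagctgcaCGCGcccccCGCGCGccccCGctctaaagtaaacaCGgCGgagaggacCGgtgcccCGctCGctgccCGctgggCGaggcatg
Tubb4a: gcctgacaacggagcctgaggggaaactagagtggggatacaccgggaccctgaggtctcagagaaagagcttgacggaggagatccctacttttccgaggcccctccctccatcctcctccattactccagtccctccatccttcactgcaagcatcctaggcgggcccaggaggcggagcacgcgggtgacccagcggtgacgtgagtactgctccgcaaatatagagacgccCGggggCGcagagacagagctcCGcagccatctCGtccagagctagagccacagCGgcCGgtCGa
Rtkn: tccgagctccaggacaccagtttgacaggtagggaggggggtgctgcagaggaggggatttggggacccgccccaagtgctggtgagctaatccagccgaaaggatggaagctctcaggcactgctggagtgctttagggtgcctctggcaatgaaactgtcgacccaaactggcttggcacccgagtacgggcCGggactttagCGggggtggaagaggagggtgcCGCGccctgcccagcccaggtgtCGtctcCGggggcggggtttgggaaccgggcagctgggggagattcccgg
Tbx1: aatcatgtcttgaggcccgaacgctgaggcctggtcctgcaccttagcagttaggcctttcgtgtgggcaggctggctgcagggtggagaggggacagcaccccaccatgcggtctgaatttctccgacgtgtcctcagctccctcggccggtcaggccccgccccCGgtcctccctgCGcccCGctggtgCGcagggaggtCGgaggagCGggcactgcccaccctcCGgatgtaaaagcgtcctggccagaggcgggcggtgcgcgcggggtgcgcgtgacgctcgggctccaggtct
Gm40847: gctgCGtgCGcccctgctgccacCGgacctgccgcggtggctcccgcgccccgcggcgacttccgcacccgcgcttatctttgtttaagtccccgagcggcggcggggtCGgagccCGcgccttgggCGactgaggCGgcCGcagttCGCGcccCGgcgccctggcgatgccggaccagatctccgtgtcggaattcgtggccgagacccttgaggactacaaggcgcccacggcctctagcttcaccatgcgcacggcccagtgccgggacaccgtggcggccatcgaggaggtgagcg
Dchs2: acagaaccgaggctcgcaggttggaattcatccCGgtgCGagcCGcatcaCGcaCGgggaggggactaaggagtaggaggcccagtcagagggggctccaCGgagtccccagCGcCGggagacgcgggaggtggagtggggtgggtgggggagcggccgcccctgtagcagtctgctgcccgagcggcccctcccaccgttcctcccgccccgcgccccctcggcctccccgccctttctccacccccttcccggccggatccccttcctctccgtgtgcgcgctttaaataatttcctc
Gm51701: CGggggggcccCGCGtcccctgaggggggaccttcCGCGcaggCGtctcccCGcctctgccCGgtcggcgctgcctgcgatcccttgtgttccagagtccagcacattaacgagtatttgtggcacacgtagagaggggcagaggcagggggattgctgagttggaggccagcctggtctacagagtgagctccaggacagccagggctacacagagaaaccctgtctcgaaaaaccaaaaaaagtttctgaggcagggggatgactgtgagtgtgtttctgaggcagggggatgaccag

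Rfx8, a member of the RFX family of transcription factors, had 13 measured CpGs in this stretch, read at 21 positions. They lay between 27.8 and 93.1% in KI MPP with a median of 60%, and between 0 and 7.55% in Control MPP with a median of 0%. No position of KI MPP was at 0, whereas 13 of 21 were in Control MPP. The mean level was 58.9% in KI MPP on 1619 reads, against 2.23% in Control MPP on 893 reads. All 21 positions thus stood above the highest Control position, in every capital CG of the line.

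The beta-tubulin gene Tubb4a had levels of 40 to 85.3% at 10 positions in KI MPP, against 21.6 to 52.8% in Control MPP. In Rtkn, the 8 positions lay between 30.3 and 43.0% in KI MPP, and 7 of the 8 were at 0 in Control MPP. The T-box factor gene Tbx1 had 11 positions at 48.1 to 88.0% in KI MPP, against 0 to 78.0% in Control MPP. The ranges of KI and Control MPP did not overlap at Rfx8 and Rtkn and overlapped at Tubb4a and Tbx1. In ST-HSC, which did not enter these calls, the 4 promoters were at 33.3, 70.0, 29.3 and 72.8% in KI, against 13.7, 26.4, 11.2 and 37.3% in Control. In LT-HSC they were at 23.6, 32.2, 24.4 and 58.5% in KI, against 3.35, 25, 4.67 and 38.3% in Control.

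The promoters with a fall were less alike across the libraries. Gm40847 was at 34.6% in KI MPP on 348 reads, against 74.2% in Control MPP on 171 reads, with single positions from 10.0 to 73.7% in KI and from 0 to 100% in Control. In ST-HSC its direction was the opposite, with 51.7% in KI against 30.0% in Control. Dchs2, a cadherin-related gene, was at 3.30% in KI MPP and 32.2% in Control MPP, where the median position was at 16.7% and the highest at 80%. The other 4 libraries had 0.641 to 3.44% there. Gm51701, a lncRNA gene, was at 2.70% in KI MPP and 31.6% in Control MPP, with 10 of 12 positions at 0 in KI and 5 of 12 in Control. In Control MPP its forward positions here lay at 58 to 73.6% and its reverse positions at 0 to 2.63%. The fall in the printed stretch was thus on the forward strand only. Over the whole start region the difference was -63.5 points on the forward and -48.0 points on the reverse strand.

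Over all members the KI MPP library was slightly more methylated. The mean level was 31.4% in KI MPP and 29.8% in Control MPP, a difference of 1.60 points, while the median difference was 0. Of the 829096 positions, 29.2% had a higher level in KI MPP and 17.4% a lower one. At single positions a call needed an adjusted p under 0.01 and 25 points, and 21381 positions (2.58%) were called higher in KI MPP and 11842 (1.43%) lower. In bulk DNA, more methylated molecules per cell and more cells of a type with methylated DNA cannot be told apart.

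The 2 libraries also differed at the ends of the scale. Exactly 0% was read at 41.5% of positions in KI MPP and at 57.8% in Control MPP, and exactly 100% at 16.1% of positions in KI MPP and 21.7% in Control MPP. The KI library was the deeper one, with a median coverage of 47 reads against 39 at the members and 51951665 against 44752796 reads in all. With every position thinned to 10 reads in each library, a comparison added after the data had been seen, exactly 0% was read at 51.5% of positions in KI MPP and 60.8% in Control MPP, and exactly 100% at 20.7 and 23.1%. The mean difference at that depth was 1.61 points. The other 4 libraries held 38284759 to 53884467 reads. Neither the bisulfite conversion rate nor the removal of duplicate reads is given in the sources used here.

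A CpG read on both strands gives a pair of readings within a library, since each strand is sequenced by itself. At 137212 such CpGs the strands differed by a mean of 4.72 points in KI MPP and 5.61 points in Control MPP. KI and Control differed by 5.06 points on the forward strand and 5.12 points on the reverse strand. At a single CpG the difference between the libraries was thus of the size of the difference between strands. The direction was not alike. In 9230 windows of these CpGs, KI was at least 10 points above Control in 243 and below it in 83 on the forward strand, and in 249 and 103 on the reverse strand. Between the strands of KI MPP the counts were 64 and 72, and between those of Control MPP 222 and 236. Differences between strands were about even in sign, and differences between the libraries ran upward on each strand. Forward minus reverse has no set direction, so its even signs are no measure of a shift between libraries. By number, 458 windows were at least 10 points apart between the strands of Control MPP and 136 between those of KI MPP. Between the libraries there were 326 on the forward and 352 on the reverse strand.

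**Figure D1:**
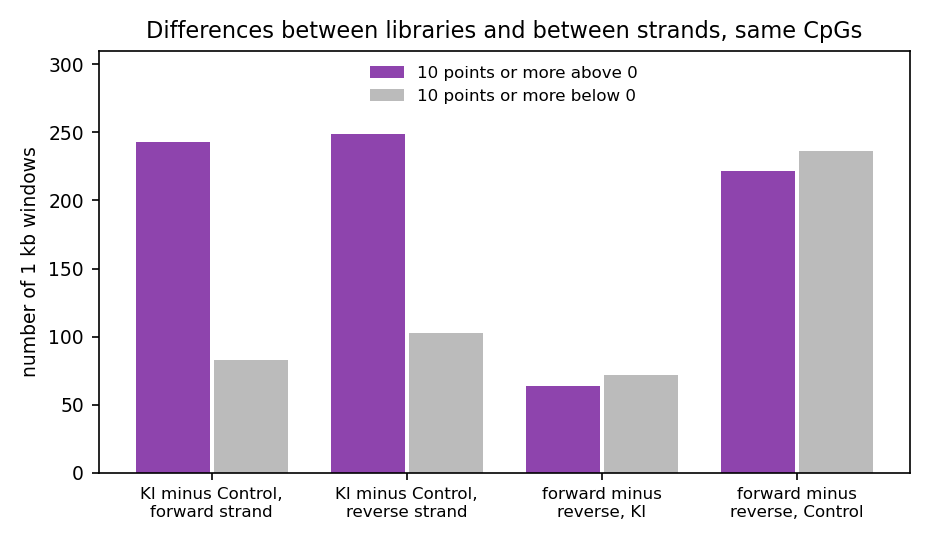
Number of 1 kb windows whose mean difference was 10 points or more above 0 (purple) or below 0 (grey), at the same CpGs read on both strands. The left pairs set KI MPP against Control MPP on each strand (243 and 83, 249 and 103), and the right pairs set the forward against the reverse strand within KI MPP (64 and 72) and within Control MPP (222 and 236).

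By window, 2196 (6.00%) of 36589 were called higher in KI MPP and 539 (1.47%) lower, by the same rule as for gene starts. Of 24988 windows with at least 3 positions on each strand, 509 (2.04%) were called higher with at least 10 points on each strand by itself, and 74 (0.296%) lower. These are called strand-supported below. They made up 46.2% of the higher and 32.0% of the lower calls that could be examined in this way, and the sign was the same on both strands in 87.7 and 87.9%. More windows were called higher than lower on 19 of 19 autosomes. The share called higher ran between 4.29% on chromosome 3 and 6.97% on chromosome 15, and the share called lower between 0.947% on chromosome 1 and 2.03% on chromosome 2.

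The difference was widest at partly methylated windows. To keep the classes apart from the contrast, each window was placed by its mean level in the 4 LT-HSC and ST-HSC libraries. This needed at least 5 positions in each of them. The 11332 windows without these were not placed, and 1051 (9.27%) of them were called higher and 275 (2.43%) lower. In 1737 windows at 20 to 80% the median difference was 5.73 points, with quartiles of -1.54 and 14, and the median levels were 55.3% in KI MPP and 48.3% in Control MPP. Of these windows, 531 (30.6%) were called higher and 111 (6.39%) lower. In 17897 windows under 20% the median difference was 1.35 points, with median levels of 4.24% in KI MPP and 2.90% in Control MPP, and 323 were called higher and 96 lower. In 5623 windows over 80% the median difference was 0, with 291 called higher and 57 lower. A window under 10% cannot fall by 10 points and one over 90% cannot rise by 10, which limits the calls in these classes.

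By place, 8.40% of 14019 gene-body windows were called higher and 1.80% lower, against 2.81 and 0.831% of 16603 windows at gene starts. Between genes, 9.25% of 5967 windows were called higher and 2.48% lower. At a like level in the stem-cell libraries the places were closer. Among windows at 20 to 80%, 30.2% of those at gene starts, 33.5% of those in gene bodies and 24.2% of those between genes were called higher. Of the windows at gene starts, 13756 were under 20%.

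**Figure D2:**
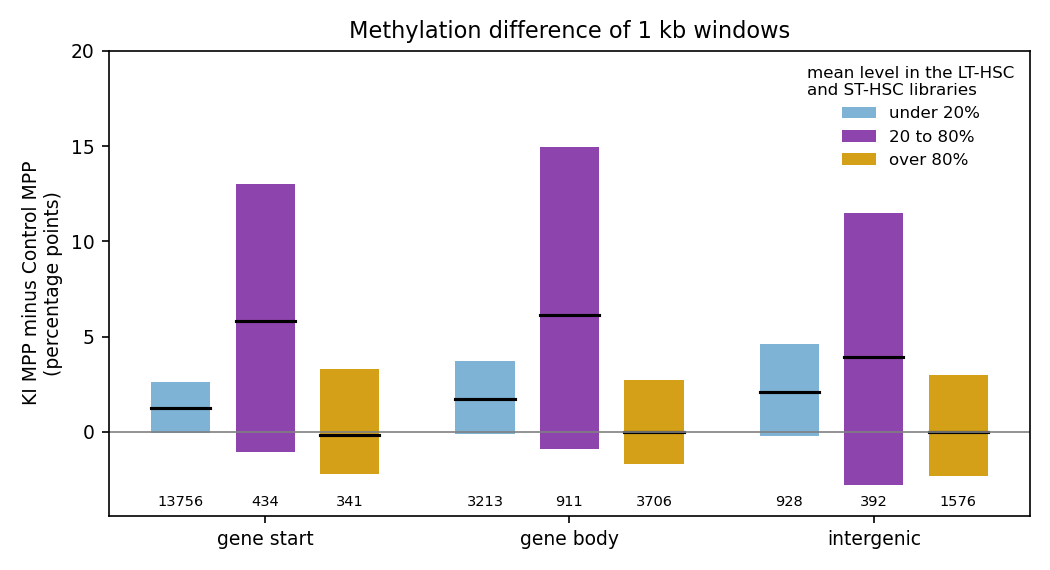
KI MPP minus Control MPP in percentage points for 1 kb windows at gene starts, in gene bodies and between genes, split by the mean level in the LT-HSC and ST-HSC libraries. Boxes span the quartiles, black lines mark the medians and the numbers of windows stand below. The middle class has medians of 5.83, 6.16 and 3.93 points, and the class over 80% lies near 0.

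Read from the side of Control, 3.56% of the windows under 20% in Control MPP were at 20 to 80% in KI MPP (721 windows), and 1.87% of those over 80% were (239 windows). Of the windows at 20 to 80% in Control MPP, 841 (23.8%) were over 80% in KI MPP and 258 (7.32%) under 20%. No window was over 80% in Control and under 20% in KI, and 2 windows were under 20% in Control and over 80% in KI. One lies in Rnf43, a ubiquitin ligase that removes WNT receptors, at 94.4% in KI MPP on 242 reads and 4.00% in Control MPP on 100 reads. The other lies in Tnfaip2, a gene induced by tumour necrosis factor, at 100% in KI MPP on 95 reads and 15.6% in Control MPP on 128 reads. Each was read on 1 strand, at 5 and 8 positions. At the Rnf43 window KI ST-HSC had 83.6% and Control ST-HSC 91.7%.

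Around gene starts the 2 MPP libraries had profiles of the same shape. Within 250 bases downstream of the start the mean level was 5.51% in KI MPP and 4.30% in Control MPP, and within 250 bases upstream 5.85 and 4.66%. The difference was 1.20 and 1.21 points in the bins before and after the start. Between 1000 and 1249 bases downstream it was 1.98 points, and between 3000 and 3249 bases 3.47 points, at levels of 52.9% in KI MPP and 49.4% in Control MPP.

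**Figure D3:**
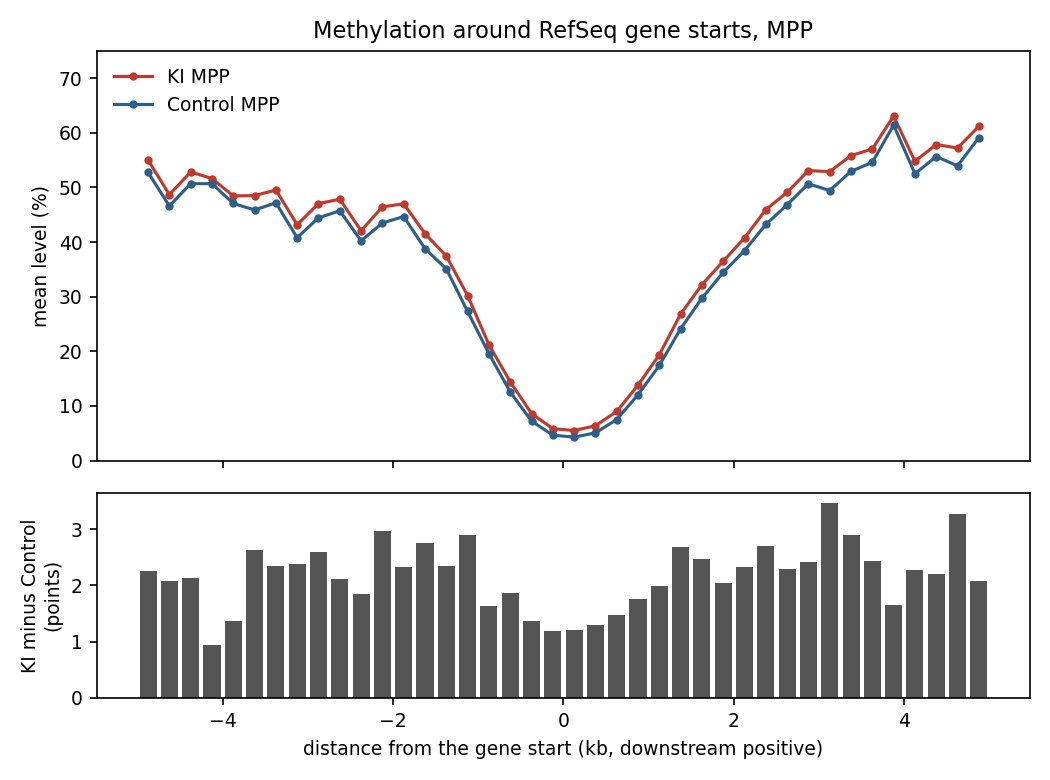
Mean methylation level in bins of 250 bases by distance from the RefSeq gene start in KI MPP (red) and Control MPP (blue), with KI minus Control in points below. Both lines dip to about the same low at the start (5.51 and 4.30%), and the KI line lies above the Control line in every bin.

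At gene starts, 297 were called higher in KI MPP and 89 lower. Where RefSeq gives no promoter, the CpG-rich end of a gene stood for its start, as for 67 higher and 21 lower calls. That end was chosen by its measured positions and not by strand, so it can be the far end of the gene. Among the genes named below these are Slc39a4, Them6, Gm39556, Gm17330, Sp7, Kdm2a, Kdm6b, Hoxa4, Hoxb2, Peg10 and Sgce. Neighbouring genes can share a start region, and 277 higher and 84 lower calls were left when each set of positions was counted once. Of 11404 protein-coding starts, 1.78% were called higher and 0.596% lower. Of 2141 lncRNA starts, 4.39% were called higher and 0.981% lower. Where RefSeq gives the promoter, the starts called higher held a median of 13 CpGs in 300 bases, those called lower 14, and the uncalled ones 24. Their median Control level was 10.7% in the starts called higher, 27.6% in those called lower and 2.82% in the uncalled ones, and a start near 0 cannot fall.

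The largest rises at gene starts rested on few positions, apart from those of Rfx8 and Tjp3. Over its whole start region Rfx8 was at 61.0% in KI MPP and 11.1% in Control MPP at 36 positions, of which 35 were higher in KI. Tjp3, which encodes a tight junction protein, was at 71.7% in KI MPP on 1392 reads and 27.4% in Control MPP on 1453 reads (adjusted p 2.14e-109), and 14 of 14 positions were higher in KI. The zinc transporter gene Slc39a4 was at 92.6% in KI MPP and 41.8% in Control MPP, and Them6 at 83.4 and 30.3%, each at 5 positions. In LT-HSC Slc39a4 had the opposite direction, with 65.3% in KI and 93.3% in Control, and in ST-HSC it had 76.1% in KI and 52.6% in Control. Them6 had 65.6% in KI ST-HSC and 63.2% in Control ST-HSC. Myog, a transcription factor of muscle, shares its 5 positions with the lncRNA gene Myoparr, at 78.0% in KI MPP and 34.3% in Control MPP. The other 4 libraries had 84.0 to 92.5% there, KI LT-HSC at 2 of the 5 positions. The other members of the 10 largest rises were the lncRNA genes Gm41996, Gm32213, Gm32224 and Gm39556. They stood at 54.1 to 96.8% in KI MPP and 7.51 to 52.2% in Control MPP. Gm32213, at 18.1% in Control MPP, was at 55.9 to 61.4% in the stem-cell libraries of both genotypes. Gm39556 was at 50.8% in KI ST-HSC and 55.0% in Control ST-HSC. Gm41996 was higher in KI in ST-HSC (51.6% against 19.5% in Control) and lower in LT-HSC (28.6 against 47.2%). Gm32224 was not read in Control LT-HSC or ST-HSC.

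Among the falls, Gm51701 stood at 2.42% in KI MPP and 58.6% in Control MPP over 42 positions. Lipo2, a lipase gene, was at 39.5% in KI MPP and 72.0% in Control MPP on 104 and 100 reads. In LT-HSC Lipo2 was at 30.2% in KI and 30.3% in Control. Rps16, which encodes a ribosomal protein, had 0 methylated of 63 reads in KI MPP, which allows a level of up to 4.76%, and 29.1% in Control MPP. Acta1, the actin of skeletal muscle, shares its 8 positions with Gm29773, at 40.3% in KI MPP and 63.4% in Control MPP. Ifitm10 was at 24.0% in KI MPP and 46.7% in Control MPP, and the stem-cell libraries were at 13.9 to 20.6%. Gm17330 was at 21.5% in KI MPP and 52.8% in Control MPP and Gm5294 at 41.5 and 66.2%. Gm17330 had 15.8% in KI ST-HSC and 35.9% in Control ST-HSC, the latter at 2 positions, and 11.9 and 8.71% in LT-HSC. Gm5294 was higher in KI in ST-HSC (53.8% against 44.2% in Control) and LT-HSC (29.0 against 11.4%). The CpG-rich end of Sp7, described with the windows, was also among the 10 largest falls.

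The enzymes nearest to the knock-in kept low levels at their starts. None of 18 measured genes of the list of IDH, TET and DNA methylation enzymes was called, and their median difference was 1.32 points, against 1.25 points over all 13545 starts. Idh1 was at 1.99% in KI MPP and 0.478% in Control MPP (22 positions, adjusted p 0.0981), and Idh2 at 5.69% in KI MPP and 2.62% in Control MPP (adjusted p 0.000186). Tet2, a TET enzyme often mutated in blood cancers, was at 2.70% in KI MPP and 1.03% in Control MPP (80 positions, adjusted p 6.55e-09). Tet3 was at 7.25% in KI MPP and 4.59% in Control MPP, and Tet1 at 1.40 and 1.62%. The maintenance methyltransferase Dnmt1 was at 4.62% in KI MPP and 3.01% in Control MPP, Dnmt3a at 2.71 and 2.18% and Dnmt3b at 1.98 and 2.03%. Some of these passed the Fisher test on reads, and none reached 10 points. In the gene body of Dnmt3a, 1 window was at 78.2% in KI MPP and 53.7% in Control MPP, with -3.14 points on the forward strand and 58.9 on the reverse.

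Of 25 measured genes of other dioxygenases that use 2-oxoglutarate, 1 was called higher and 2 lower, against 2.19 and 0.657% of all gene starts. Kdm2a, a demethylase of histone H3 that binds unmethylated CpG, was at 19.4% in KI MPP and 3.44% in Control MPP (27 positions, adjusted p 5.09e-61). Its levels in ST-HSC were 22.9% in KI and 6.38% in Control, and in LT-HSC 13.5% in KI and 12.3% in Control. Riox2, a ribosomal oxygenase gene, was at 9.65% in KI MPP and 30.7% in Control MPP, and at a coverage of at least 20 its difference was -7.43 points, which is no call. Kdm6b, a histone H3 demethylase, was at 55.0% in KI MPP and 70.9% in Control MPP at its CpG-rich end, at positions that also lie at Tmem88. The difference there was -29.4 points on the forward and -1.02 points on the reverse strand. KI was higher in ST-HSC, at 50.8% against 40.1% in Control, and in LT-HSC, at 37.6% against 31.2%.

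The kinase gene Atm, which acts upon DNA breaks, was at 3.57% in KI MPP and 1.61% in Control MPP (18 positions, adjusted p 0.0682). None of 26 measured starts of DNA damage response genes was called, with a median difference of 0.871 points. In their gene bodies and starts 2 of 53 windows were called higher, in Fanca and Lig4, and 0 lower, which is 3.77% against 6.00 and 1.47% of all windows. The start of the cell cycle inhibitor gene Cdkn2a was at 4.49% in KI MPP and 2.15% in Control MPP (94 positions, adjusted p 1.14e-07), and that of Meis1, a homeobox gene of stem cells, at 3.32 and 1.95%.

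In genes of stem cells and multipotent progenitors, 15 of 137 windows (10.9%) were called higher and 1 lower (0.730%), against 6.00 and 1.47% over all windows, and 2 of the rises and the fall were strand-supported. None of 23 measured starts was called, against 2.19 and 0.657% of all gene starts. Hlf, a transcription factor of stem cells, had a window at 73.9% in KI MPP on 334 reads and 21.3% in Control MPP on 171 reads. It had 58.4 points on the forward and 43.8 on the reverse strand, but at 5 positions it was not strand-supported. That window was at 44.4% in KI ST-HSC and 29.9% in Control ST-HSC. Another called window in Hlf was at 100% in KI MPP and 52.6% in Control MPP, with 2.08 points on the forward and 92.7 on the reverse strand. Robo4, a guidance receptor of stem cells and endothelium, had a window at 69.2% in KI MPP and 8.27% in Control MPP. The other 4 libraries were at 35.2 to 70.4% there. Cdkn1c, an inhibitor of the cell cycle and an imprinted gene, had a strand-supported window at 37.9% in KI MPP and 19% in Control MPP over 47 positions. In Gfi1, a repressor that restrains stem cell division, a window of 35 positions was at 72.9% in KI MPP and 61.6% in Control MPP. The same window was at 47.3% in KI ST-HSC and 24.8% in Control ST-HSC, and at 33.1% in KI LT-HSC and 6.66% in Control LT-HSC. Prdm16, a stem cell regulator, had 4 of 22 windows called higher, none of them strand-supported, and 1 strand-supported window called lower.

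Among the genes of the sort, Kit, the receptor for stem cell factor, was at 2.15% in KI MPP and 0.889% in Control MPP at its start. Cd34 was at 3.77% in KI MPP and 2.93% in Control MPP, and Flt3, a receptor that marks later MPP, at 9.47 and 7.14%. None was called, and the starts of Ly6a, Slamf1 and Cd48 were not measured. A low level at a start does not show that the gene is expressed, so the sort cannot be examined by these levels. Of 12 genes of lineages that the sort removes, 1 start was measured, and of 6 marrow endothelium and stroma genes 3 were, and none was called. In windows of the endothelium and stroma genes, 3 of 14 windows were called higher, in Kdr, Cxcl12 and Pecam1, against 6.00% of all windows. None of the 3 was strand-supported, and at Kdr the strands had opposite signs (-2.23 and 22.8 points). At the Pecam1 window KI MPP was at 29.4% and Control MPP at 0.444%, and the part of other cells in such values was not tested.

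In lymphoid genes 7 of 80 windows were called higher (8.75%) and 3 lower (3.75%), against 6.00 and 1.47% of all windows. No start was called among 9 myeloid, 14 lymphoid and 10 erythroid and megakaryocyte genes, counts too small to tell from the 2.19 and 0.657% of all gene starts. Dntt, the terminal transferase of early lymphocytes, had a window at 62.3% in KI MPP on 435 reads and 28.0% in Control MPP on 333 reads. It was at 66.5% in KI ST-HSC and 51.0% in Control ST-HSC, and at 91.3% in Control LT-HSC with no reading in KI LT-HSC. With 5 positions this window cannot have 3 on each strand and was not strand-supported. Near Tcf7, a transcription factor of early T cells, a strand-supported window was at 34.0% in KI MPP and 10.8% in Control MPP. It was at 26.0% in KI ST-HSC and 12.7% in Control ST-HSC. In LT-HSC the direction was the opposite, with 12.1% in KI at 5 positions and 34.7% in Control at 9. A strand-supported window near Id2, an inhibitor of E proteins that steers innate lymphoid and natural killer cells, was at 37.2% in KI MPP and 10.0% in Control MPP. Lower in KI MPP were strand-supported windows in Ebf1 and Bcl11b, factors of B and T cells, at 71.0 and 64.4% in KI MPP against 88.2 and 80.4% in Control MPP. In ST-HSC the Ebf1 window had the opposite direction, with 88.6% in KI and 70.5% in Control, and in LT-HSC it had 83.5% in KI and 81.0% in Control. In myeloid genes 3 of 35 windows were called higher (8.57%) and 1 lower (2.86%), among them 1 at Irf8 with 15.2% in KI MPP and 3.42% in Control MPP. In erythroid and megakaryocyte genes, Zfpm1, the GATA factor partner FOG1, had windows at 55.2% in KI MPP against 25.5% in Control MPP and at 22.0% in KI MPP against 53.3% in Control MPP. The second was not of 1 sign on both strands (18.9 and -45.6 points).

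Homeobox and PAX genes, which set position in the embryo and in part stay active in blood stem cells, had 6 of 74 measured starts called higher and 0 lower, against 2.19 and 0.657% of all gene starts. Their median difference was 2.09 points, against 1.25 points over all starts. Hoxa4 was at 22.9% in KI MPP on 3134 reads and 2.0% in Control MPP on 2594 reads at its CpG-rich end (63 positions, adjusted p 8.07e-114). Of its positions 56 were higher in KI MPP, 4 lower and 3 equal. In ST-HSC this end was at 22.3% in KI and 2.32% in Control, and in LT-HSC at 17.5% in KI and 3.22% in Control. A window of 77 positions that overlaps it was 24.2 points higher in KI MPP on the forward and 31.1 on the reverse strand. Hoxa5 was at 86.7% in KI MPP and 71.2% in Control MPP, and Hoxa6 at 34.7 and 20.6%. Pooled over reads, the differences of Hoxa5 and Hoxa6 were 8.16 and 8.86 points, which is no call. Hoxb2 was at 42.1% in KI MPP and 25% in Control MPP, but at 15.3% in KI ST-HSC and 19% in Control ST-HSC. Over the genes of this list, 27 of 375 windows were called higher and 8 lower, a share near that of all windows. The largest fall among them was in Pax9, at 55.0% in KI MPP and 97.5% in Control MPP on 178 and 128 reads.

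**Figure D4:**
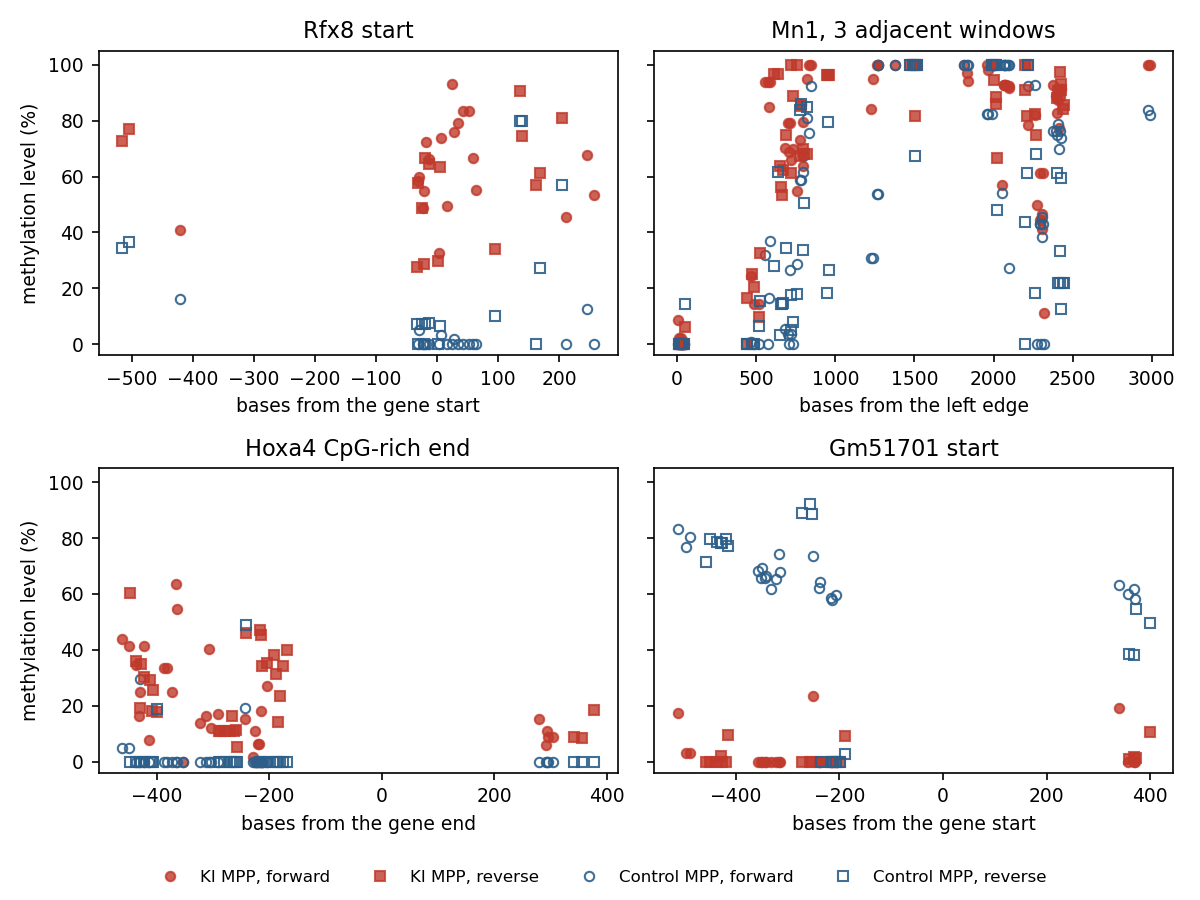
Methylation level of each measured position by its distance from the gene start or end (from the left edge of the windows for Mn1), in KI MPP (red, filled) and Control MPP (blue, open), with circles for the forward and squares for the reverse strand. At Rfx8 and Hoxa4 most Control positions lie at 0 and most KI positions above them, and at Gm51701 the KI positions lie near 0 (median 0%) with Control at a median of 65.6%.

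Imprinted genes, of which 1 parental copy is methylated, had 3 of 25 starts called higher and 2 lower, against 2.19 and 0.657% of all gene starts. Their median start level was 28.6% in KI MPP and 20.1% in Control MPP, above the 4.16 and 2.91% of all starts. Peg10 and Sgce share 1 start region and its 11 positions, at 57.4% in KI MPP on 422 reads and 28.9% in Control MPP on 238 reads. The other 4 libraries were at 28.0 to 35.9% there. The ubiquitin ligase gene Mkrn3 was the third one called higher. Slc22a3, an organic cation transporter, was at 28.6% in KI MPP and 44.4% in Control MPP. Its direction was the opposite in ST-HSC, with 32.6% in KI and 20.1% in Control, while LT-HSC had 29.2% in KI and 51.5% in Control. Magel2 was at 33.7% in KI MPP and 46.5% in Control MPP, and at -9.97 points at a coverage of at least 20. In ST-HSC Magel2 was at 30.0% in KI and 23.6% in Control, and in LT-HSC at 31.6 and 31.0%. In windows of imprinted genes 6 of 79 were called higher and 11 lower. The falls include a strand-supported window in Grb10, an adaptor that restrains growth, at 34.1% in KI MPP and 54.3% in Control MPP. Another lay in Gnas, at 34.1% in KI MPP and 50% in Control MPP. At Grb10 KI was lower in LT-HSC (20.3% against 37.9% in Control) and higher in ST-HSC (41.9 against 36.8%), in part at fewer positions. The Gnas window was higher in KI in ST-HSC (42.4% against 38.2% in Control) and LT-HSC (53.6 against 45.6%). The shares over the windows of imprinted genes were 7.59% higher and 13.9% lower, against 6.00 and 1.47% of all windows. Of windows at 20 to 80% in the stem-cell libraries they were 30.6 and 6.39%.

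Of the remaining lists, the germline genes had 1 of 13 starts called higher (Rpl10l) and 1 lower (Tdrd1). All counts of these lists are to be read against 2.19% of all gene starts called higher and 0.657% lower, and in lists this small 1 or 2 calls cannot be told from that background. Tdrd1, of the piRNA pathway, was at 73.0% in KI MPP and 83.9% in Control MPP, whereas KI was higher in ST-HSC, at 82.4% against 59.3% in Control. None of 34 tumour suppressor and WNT inhibitor starts was called, while 33 of 34 were above 0 with a median difference of 1.96 points, against 10101 of 13545 and 1.25 points over all starts. Of 14 interferon and innate sensing starts 1 was called higher. It was Mavs, the mitochondrial adaptor of RNA sensing, at 22.9% in KI MPP on 101 reads summed over 5 positions. Control MPP had 0 methylated of 80 reads there, with 14 to 17 reads at a single position. Taken as separate molecules these 80 allow up to 3.75%, and more where 1 molecule counts at several positions. Mavs was at 14.6% in KI ST-HSC and 15.3% in Control ST-HSC. Of 36 starts of Ras and related small GTPase signalling genes 2 were called higher, Rasal3 and Arhgap27, and the difference of Arhgap27 was 6.41 points at a coverage of at least 20. In Spred2, an inhibitor of Ras signalling, a gene-body window was at 68.3% in KI MPP and 43.8% in Control MPP.

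The 10 strand-supported windows with the largest rise lay mostly in gene bodies. A window 3090 bases from Akap7, an anchor of protein kinase A, was at 87.8% in KI MPP on 532 reads and 23.1% in Control MPP on 474 reads, a difference of 64.7 points. At a coverage of at least 20 the difference was 38.8 points, and pooled over reads it was 47.6 points. The stem-cell libraries had 63.1% in KI ST-HSC, 70.5% in Control ST-HSC, 1.67% in KI LT-HSC and 29.6% in Control LT-HSC, at 5 positions each apart from 10 in Control LT-HSC, so the LT-HSC values are not matched by position. A window 650 bases from 2810410L24Rik was at 70.0% in KI MPP and 11.1% in Control MPP. Windows inside genes lay in Nab2, a corepressor of EGR factors (88.4% in KI MPP, 30.1% in Control MPP), and in Cdh23, a cadherin of hair cells (74.4 and 19.6%). Further windows lay in Nid2, of the basement membrane (83.1% in KI MPP, 28.8% in Control MPP), Sec22c, of vesicle transport (63.3 and 9.12%), and N4bp3 (64.3 and 10.7%). Snx10, a sorting nexin, was at 76.6% in KI MPP and 24.7% in Control MPP. KI was also above Control in both ST-HSC and LT-HSC at 2810410L24Rik, Nab2, Cdh23, N4bp3, Snx10 and Rfx8. At Nid2 KI was lower in ST-HSC, and at Sec22c it was lower in LT-HSC.

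The 10 strand-supported windows with the largest fall had mixed directions in the stem-cell libraries. At both Gm51701 windows KI was at 1.99 to 4.23% in all 3 cell types and Control at 46.5 to 67.9%. These windows were also covered more in Control. The start of Gm51701 held 2270 reads in KI MPP and 7716 in Control MPP, 1846 in KI ST-HSC and 8048 in Control ST-HSC, and 2069 in KI LT-HSC and 9499 in Control LT-HSC. The part of this difference in coverage in the levels was not tested. At Sp7, a factor of bone formation, KI MPP was at 28.6% on 408 reads and Control MPP at 80% on 135 reads, while the other 4 libraries were at 11.5 to 30.6%. Each Control MPP position of that window had 11 to 14 reads and stood at exactly 0 or 100%. The window could thus not be examined at a coverage of at least 20. A window 40970 bases from Fgf18 was at 49.1% in KI MPP and 83.3% in Control MPP, and in LT-HSC KI was lower too, at 35.3% against 74.3% in Control, while ST-HSC had 57.1% in KI and 53.6% in Control. A window 8563 bases from Vmn1r53 was at 54.7% in KI MPP and 85.8% in Control MPP, and KI was lower in ST-HSC and LT-HSC as well. Kcnh3, a potassium channel gene, had 26.1% in KI MPP and 56.5% in Control MPP, with the opposite direction in both stem-cell types. The remaining windows were at or near Pax9, Gm35542, 1700041M19Rik and Gm30144.

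**Figure D5:**
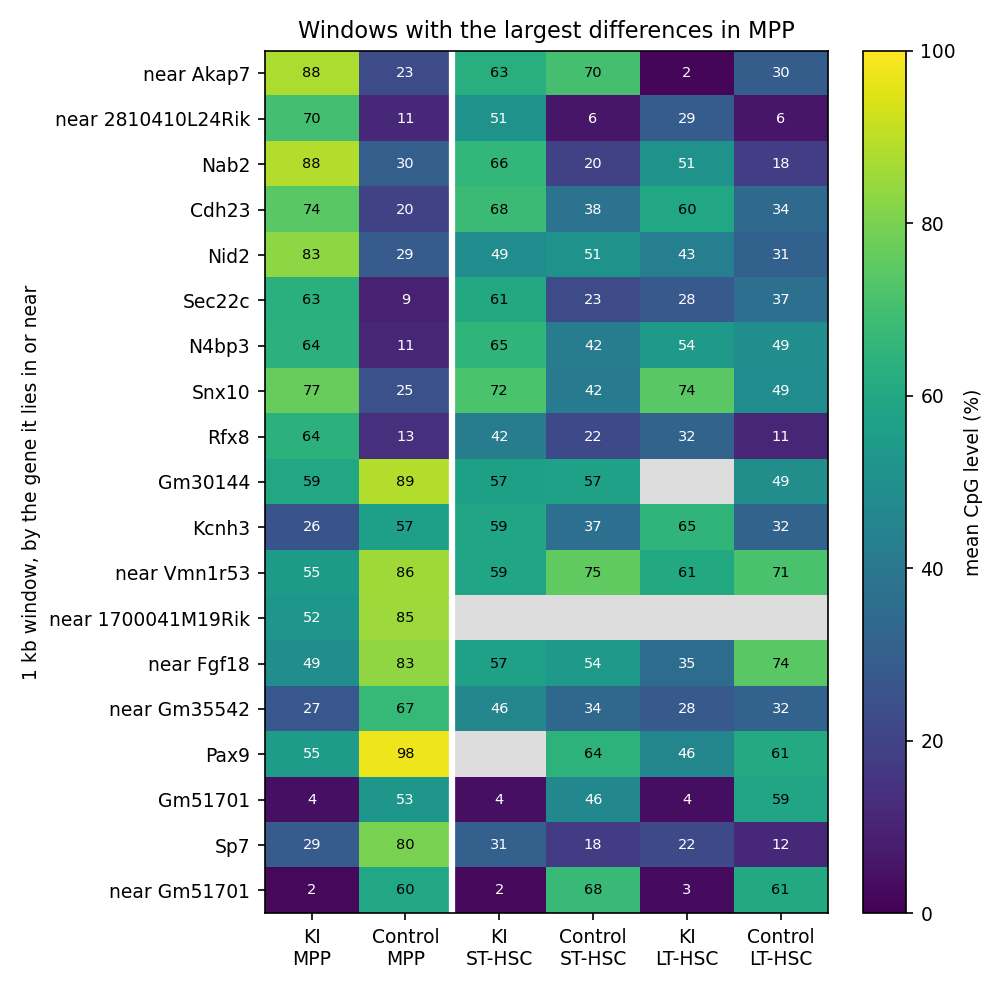
Mean CpG level in percent in each of the 6 libraries for 9 of the 10 strand-supported windows with the largest rise (top) and the 10 with the largest fall (bottom) in MPP, named by the gene they lie in or near. Grey cells had no measured position. The rows at Nab2, Cdh23, Snx10 and Rfx8 are higher in KI in all 3 cell types, and both Gm51701 rows lower in KI in all 3.

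Adjacent called windows were rare. Of the higher calls, 2129 stood alone and 33 runs held 2 or more windows, while of the lower calls 533 stood alone and 3 runs held 2. The 1 run of 3 windows lay in Mn1, a transcriptional coregulator that takes part in a fusion of myeloid leukaemia, on chromosome 5 from 111418001 to 111421000. Its 124 positions had a mean of 69.4% in KI MPP and 45.3% in Control MPP, with 85 positions higher in KI, 18 lower and 21 equal. Pooled over reads, the level was 67.1% (95% Wilson interval 65.8 to 68.3) in KI MPP and 41.4% (40.1 to 42.7) in Control MPP. These intervals take each count as separate, although 1 molecule can count at several neighbouring positions. They are thus too narrow even for counting error, and hold no spread between pools. In ST-HSC the run was at 56.4% in KI and 35% in Control, and in LT-HSC at 47.6% in KI and 25.1% in Control. The run was 20.4 points higher in KI MPP on the forward and 28.6 on the reverse strand. The middle window was at 4.34 points at a coverage of at least 20, which is no call, so that the run is then broken. The run at Rfx8 spanned 2 windows, both strand-supported, and a further run lay between genes near Bex6 on chromosome 16, at 67.4% in KI MPP and 34.1% in Control MPP. The first of its windows had a difference of 33.6 points, and of 14 points at a coverage of at least 20. By strand that window had 51.9 points on the forward and -2.87 points on the reverse strand. The lower runs were those of Gm51701, Slc22a3 and Tmem88.

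The LT-HSC and ST-HSC libraries gave a reading of the called windows that shares no library with MPP, although the cell types of 1 genotype may come from the same mice. Of the windows called higher in MPP and measured in ST-HSC, 692 of 1863 (37.1%) were at least 10 points higher in KI ST-HSC and 32 (1.72%) at least 10 points lower, against 6.08 and 0.810% of all windows. In LT-HSC 308 of 1293 (23.8%) were at least 10 points higher and 81 (6.26%) lower, against 3.78 and 1.75% of all windows. Windows at 20 to 80% had more differences of this size in general. Among these alone, 62.7% of the windows called higher in MPP were 10 points higher in ST-HSC, against 43.2% of all such windows, and in LT-HSC 41.1% against 31.0%. Of the strand-supported windows called higher, 236 of 465 (50.8%) were 10 points higher in ST-HSC.

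Of the windows called lower in MPP, 27 of 445 (6.07%) were at least 10 points lower in KI ST-HSC and 91 (20.4%) at least 10 points higher, against 0.810 and 6.08% of all windows. In LT-HSC 32 of 317 (10.1%) were lower and 43 (13.6%) higher, against 1.75 and 3.78% of all windows. Both directions were thus more frequent than over all windows, and differences upward outnumbered those downward. By calls in each cell type, of 38319 windows 5.01% were called higher and 0.585% lower in ST-HSC, and of 30570 windows 3.30 and 1.51% in LT-HSC. Windows called higher in both MPP and ST-HSC numbered 586, which is 31.5% of the MPP calls and 37.6% of the ST-HSC calls at windows measured in both, against 4.75% of these windows called higher in ST-HSC and 5.67% in MPP. With LT-HSC there were 256, which is 19.8% of the MPP calls and 31.0% of the LT-HSC calls, against 3.06 and 4.79%. Windows called lower in both numbered 18 with ST-HSC (4.04 and 10.6%) and 21 with LT-HSC (6.62 and 5.87%). The shares of all windows called lower were 0.518% in ST-HSC and 1.36% in MPP at windows measured in both, and 1.33% in LT-HSC and 1.17% in MPP. No test of the difference between cell types can be had with 1 library each.

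Set beside the 4 stem-cell libraries, the windows called higher had a median level of 56.7% in KI MPP and 33.3% in Control MPP, over 1145 windows measured in all 6 libraries. They stood at 54.8% in KI ST-HSC and 36.3% in Control ST-HSC, and at 44.8% in KI LT-HSC and 34.7% in Control LT-HSC. The MPP values chose these windows, so the order of the 2 MPP medians is fixed by the choice. The 264 windows called lower had 34.8% in KI MPP and 56.2% in Control MPP, against 33.2 to 41.5% in the other 4 libraries. Here too the MPP values made the choice. The 23848 windows not called had medians of 5.51% in KI MPP, 4.24% in Control MPP and 3.94 to 5.02% in the others.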

How the data were processed

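Per the file headers, the authors' coverage is the read count at each cytosine, and their deposited levels give the percent of those reads that kept C or turned to T. The submitters' processing notes list Bismark 0.10.0, SAMtools 1.0 and methylKit 0.9.1 with mm10 and no settings. Within a small rounding tolerance, coverage times percent C gave whole methylated reads at 100% of positions.

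KI MPP and Control MPP were grouped by their labels and compared with Python 3.11.15, pandas 2.3.3 and SciPy 1.17.1. Two-sided Fisher exact tests on summed reads were adjusted by Benjamini-Hochberg over all windows, gene starts or positions. The window test was run on simulated reads, drawn independently at each position around a shared level apart from set changes in some windows. Such reads hold no spread between libraries, strands or amplified copies, and no molecule counted at several positions. That run thus covers counting error of separate reads only. Where RefSeq gave no promoter, the CpG-rich end of the gene (at least 5 positions and 3 times those of the other end) stood for its start. Gene extents come from RefSeq on GRCm38.p6, the same build as mm10, include predicted transcripts, and measured positions in promoters fell on CG at 100%. Chromosome 18 promoters, exons and introns were not analysed here. The members and lists were chosen with earlier results of these data known. Named are the 10 strand-supported windows and 10 called gene starts with the largest rise and fall, up to 4 called members per list, fixed genes of IDH, methylation and sort, the 3 longest runs each way, and windows that crossed from under 20 to over 80%. Other list windows were named after their values were seen. Of those so chosen, 1 window and 1 gene start are not reported here. Alternatives were coverage of at least 20, no positions of extreme coverage, thinning to 10 reads, pooling over reads, at least 10 positions, moved windows, 1 strand, positions in all 6 libraries and larger differences.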

Additional observations from a re-analysis of the deposited data

Results flagged for a closer look

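Some windows called lower in MPP moved the other way by at least 10 points in both stem-cell types. At Sp7 on chromosome 15 the KI minus Control difference was -51.4 points in MPP, with 30.6% in KI and 18.0% in Control ST-HSC and 21.9% in KI and 11.5% in Control LT-HSC. At Kcnh3 it was -30.4 points in MPP, with 58.9% in KI and 36.7% in Control ST-HSC and 65.4% in KI and 31.9% in Control LT-HSC. At Tmem88 it was -20.1 points in MPP, with 56.5% in KI and 29.2% in Control ST-HSC and 43.7% in KI and 28.3% in Control LT-HSC. The difference between cell types was not tested.

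Chromosome X lay outside the autosomal members. It had 636 windows, of which 31 (4.87%) were called higher in KI MPP and 15 (2.36%) lower, with a mean difference over positions of 1.31 points.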

How the results depend on the processing

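No paired analysis was possible because each side was 1 library. In each setting that left calls, more windows, positions and gene starts were called higher than lower in KI MPP. The mean difference was 2.15 points pooled over reads, 1.65 on the forward strand and 1.51 at positions covered in all 6 libraries. Thinned to 10 reads, windows numbered 604 higher and 92 lower, strand-supported windows 289 and 36, gene starts 115 and 19, and single positions 0 and 0, since 10 reads a side seldom reach the threshold. With at least 10 positions the numbers were 520 and 115, 243 and 28, and 122 and 33 in the same order. On the forward strand alone, 884 windows were higher and 288 lower, and 10670 and 5829 positions. At positions in all 6 libraries there were 1173 and 319 windows, 270 and 36 strand-supported windows and 12318 positions higher. With larger differences required (20 points, 40 for positions) there were 724 and 114 windows, 126 and 11 strand-supported windows, 74 and 16 gene starts, and 11241 and 6628 positions. At a coverage of at least 20, 335 windows were lower and 46 strand-supported ones. Apart from the thinned reads, the cause of these changes was not tested. Thinned to 10 reads, 5 of the named windows lost the call and 27 kept it, and pooled over reads 1 lost it and 31 kept it. At a coverage of at least 20, 1 lost it and 24 kept it. The remaining windows then had too few positions to be examined, among them those at Sp7, Gm35542, Fgf18, 1700041M19Rik and Kcnh3. Of the named gene starts, 15 lost the call thinned to 10 reads, 3 pooled over reads and 3 at a coverage of at least 20. At that coverage 35 starts were unchanged and the remaining ones could not be examined. Depth, unknown numbers of amplified copies and 1 pool a side limit all calls to these 2 libraries.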
